A study of Mus musculus with 4 samples.

Results

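The genes described here are cytosolic heat shock proteins, J-domain proteins and BAG co-chaperones, taken from the array design by name: Hspa, Hspb, Hspd, Hspe and Hsph genes, Hsp90a genes, numbered Dnaja, Dnajb and Dnajc genes and numbered Bag genes, with 8 chaperones of the endoplasmic reticulum left out. The rule reads names only. It gave 68 of the 29353 genes on the array, measured by 112 of its 40628 gene probes, with 34 genes on 1 probe and 34 on several. The word cytosolic is not exact for all of them, because the names also take in chaperones of mitochondria such as Hspd1, Hspe1 and Hspa9. Bag6, Dnajc25 and Dnajc30 carry other names on the array and are therefore no members. Hspa1b was not analysed here.

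Total RNA came from C3H10T1/2 cells, a mouse embryo fibroblast line, that had been transformed with chemicals. In the phorone group (2 arrays) transformed cells were exposed to 2 mM phorone, an unsaturated ketone that binds glutathione and depletes it. In the control group (2 arrays) the transformed cells received no phorone. Both groups had gone through 2.5 µg/ml of 3MC (3-methylcholanthrene) for 2 days, 4 days in normal medium, 100 ng/ml of TPA, a phorbol ester, over 2 weeks, and 4 weeks in normal medium. How long phorone was applied and in which vehicle is not given in the sources used here, and untransformed cells are in neither group. Whether replicates were separate cultures is not stated in the labels, so every p-value reflects only how far these samples spread, and that spread may be technical. A lower signal in a bulk sample cannot tell fewer cells of a kind from less RNA per cell.

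As background, heat shock proteins hold, fold, refold or hand on other proteins. HSP70 proteins bind exposed hydrophobic stretches in a cycle driven by ATP, which J-domain proteins start and nucleotide exchange factors, the HSP110 and BAG proteins among them, complete. HSP90 matures kinases and steroid receptors with the help of co-chaperones, small heat shock proteins keep unfolding proteins soluble without ATP, and HSP60 with HSP10 forms the folding chamber of mitochondria. Many of these genes are targets of the heat shock factor HSF1, which binds heat shock elements, inverted repeats of the unit GAA, when unfolded or chemically modified proteins occupy the chaperones.

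Signals are log2 values relative to the 75th percentile of each array, and a change is the mean of the phorone arrays minus that of the control arrays. Between 51.1% and 52.2% of spots on the phorone arrays and between 52.3% and 52.7% on the control arrays were well above background. All 4 arrays lay on 1 slide, the phorone pair in a different row from the control pair, and group cannot be told apart from row. The mean of the spike-in controls relative to the 75th percentile was 2.76 and 2.58 on the phorone arrays against 2.78 and 3.43 on the control arrays, so control replicate 2 stood apart. Scaling to the spike-ins moved the median change of all genes to 0.52, against 0.08 here, and values below are relative to the 75th percentile unless the spike-ins are named. Of 10 fibroblast markers, all 10 were detected, and 6 were lower with phorone (60%, against 21.3% of all genes tested) and 0 higher (against 24.3%). The lower ones included Col3a1 (-3.38), Pdgfra (-2.98) and S100a4 (-1.81). With spike-in scaling 3 of the 10 were lower, against 7.06% of all genes. Of 22 markers of other cell types 7 were above background, 1 of them higher (14.3%) and 3 lower (42.9%), and none of the adipocyte and hepatocyte markers was. Their part in the changes below was not tested.

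Of the 68 chaperone genes, 56 were tested, all of them well above background on all 4 arrays. More of them were higher with phorone than among genes at large: limma called 24 of the 56 higher (42.9%), against 24.3% of the 17031 genes tested, and 9 lower (16.1%), against 21.3%. The remaining 23 were not called. At least 2-fold higher were 12 members (21.4%), against 8.03% of all genes, and at least 2-fold lower were 2 (3.57%), against 12% of all genes. In 37 members (66.1%, background 43.6%) both phorone arrays lay above both control arrays, in 12 (21.4%, background 34.3%) they lay below, and in 7 the arrays of the groups overlapped. The median change was 0.42 over the members and 0.08 over all genes. With spike-in scaling, which adds the same amount to the change of every gene, 20 members were higher and 2 lower (Hspb2 and Hspb6). Of all genes, 17% were then higher and 7.06% lower. The other lower members lay nearer to 0, such as Dnaja4 at -0.134 and Dnajc19 at -0.037. Higher members that lost their call there had larger changes than before, such as Dnajc15 at 1.029 (limma adjusted p = 0.0755) and Hspa4 at 0.973 (adjusted p = 0.0947). This scaling also shifts the 2 control arrays by different amounts, and the part of that in the lost calls was not tested. With 1 array left out 6 of the higher members (Bag1, Dnaja2, Dnajc7, Dnajc15, Hspa4 and Hspd1) and 5 of the lower ones (Dnaja4, Dnajc12, Dnajc19, Dnajc27 and Hspa2) lost their call in at least 1 of the 4 fits.

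**Figure D1:**
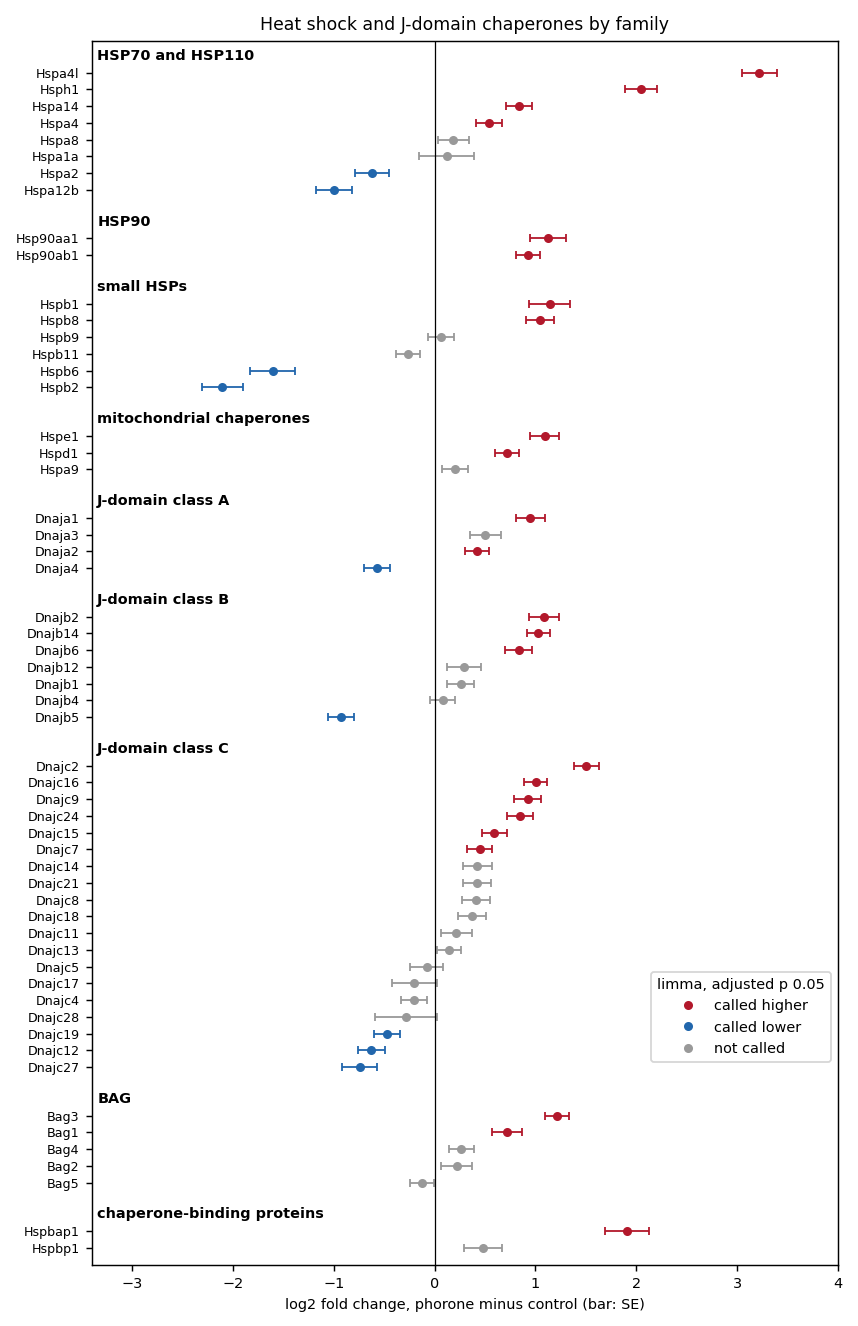
Log2 fold change (phorone minus control, x axis) of the 56 tested genes, grouped by family and ordered by size; points are fitted changes with n = 2 arrays a group, bars are SE, and colour is the limma call. Red points (24 genes) reach 3.22 for Hspa4l, blue points (9 genes) reach -2.11 for Hspb2, and with spike-in scaling only Hspb2 and Hspb6 among the blue ones are still called.

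The 12 untested members were not well above background on both arrays of either group: Hspa1l and Hspa12a of the HSP70 family, the small heat shock proteins Hspb3 and Hspb7, and the J-domain genes Dnajb3, Dnajb7, Dnajb8, Dnajb13, Dnajc5b, Dnajc5g, Dnajc6 and Dnajc22. Several of these are known from other tissues, such as Hspb3 and Hspb7 from muscle, Dnajc6 (auxilin, which uncoats clathrin vesicles) from neurons and Hspa1l from testis. No member was above background in 1 group alone.

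Heat shock elements were looked for by letters in RefSeq promoters of the GRCm38.p6 assembly, each running from 250 bases before a gene's start to 50 after it. The motif was GAANNTTC, which reads the same on both strands, and its longer forms of 3 units had a further GAA 2 bases after it or a TTC 2 bases before it, so they contain it; they were searched on both strands. Promoters were found for 55 of the 68 members. Those without one were not searched, among them the higher members Hsp90aa1, Hsp90ab1 and Dnajc2, the lower members Hspb2 and Dnajc12, and Hspa8. GAANNTTC stood in 14 of them (25.5%), against 9.04% of 27025 genes, and a form of 3 units in 4 (7.27%), against 0.662%. Split by call, the motif was present in 8 of 21 members called higher (38.1%), 3 of 7 called lower (42.9%), 1 of 17 not called (5.88%) and 2 of 10 not tested (20%). The 3-unit forms stood in 4 of the 21 higher members, Hsph1, Hspd1, Hspe1 and Dnajb6, and in 0 of the 7 lower ones. Hspd1 and Hspe1 share the same run of bases, which these counts take for each gene. The other higher members with the motif were Hspb1, Hspb8, Dnaja1 and Bag3, and the lower ones were Hspb6, Dnaja4 and Dnajc27. In Hsph1, Hspb8 and Bag3 it lay after the gene's start, and in the other higher and lower members before it. Letters in a window are a description and show no binding.

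In the HSP70 and HSP110 family 4 of 8 tested genes were higher (50%, background 24.3%) and 2 lower (25%, background 21.3%). These counts are too small to set apart from the background. Members of the HSP110 branch act as nucleotide exchange factors for HSP70. Its genes Hspa4l, Hsph1 and Hspa4 were called higher, though Hspa4 changed far less. The common cytosolic HSP70, Hspa8, and the stress-inducible Hspa1a were not called. Hspa4l measured 3.90 and 4.01 on the phorone arrays, against 0.93 and 0.53 on the control arrays. Both phorone arrays lay far above both control arrays, and its change of 3.22 (SE 0.17, limma adjusted p = 0.000484), or 9.33-fold, was exceeded by 92 of all genes tested. Its 3 probes gave 2.27, 2.94 and 3.22, all called higher. Hsph1 (HSP105) measured 5.70 and 5.97 with phorone and 3.69 and 3.89 in controls. The groups were again well apart, with a change of 2.05 (SE 0.16, limma adjusted p = 0.00108), or 4.14-fold. Hspa4 (APG-2) measured 3.68 and 3.72 in phorone cells and 3.08 and 3.25 in control cells, groups that did not overlap. It rose by 0.54 (SE 0.13, adjusted p = 0.0245), but its probes disagreed: of 2 others above background, 1 gave 0.73 (called) and 1 gave -0.29 (not called). With the mean of its probes Hspa4 was not called. The Hspa4 call was lost without phorone replicate 1, phorone replicate 2 or control replicate 1, and with spike-in scaling.

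Hspa8 measured 7.06 and 7.23 with phorone against 6.81 and 7.10 in controls. The arrays overlapped and the change of 0.19 (SE 0.16, limma adjusted p = 0.367) was not called, nor was that of its other probe (0.42). Hspa14, an HSP70 relative that works on ribosomes with the J-domain protein Dnajc2, measured 4.98 and 4.86 in phorone cells and 4.12 and 4.04 in control cells. It rose by 0.84 (SE 0.12, adjusted p = 0.00613), with no overlap between groups. The lower members were Hspa2, an HSP70 best known from sperm development, and Hspa12b, a distant relative known from endothelium. Hspa2 measured 0.08 and 0.34 in the phorone group against 0.97 and 0.69 in the control group and fell by 0.62 (SE 0.17, adjusted p = 0.0342). Hspa12b measured -2.65 and -2.36 against -1.66 and -1.36 and fell by 1.00 (SE 0.18, adjusted p = 0.00996). In neither did the groups overlap, and neither was called with spike-in scaling (-0.184 for Hspa2 and -0.561 for Hspa12b). Of 4 endothelial markers, Tek alone was above background, and only in control cells. Hspa2 also lost its call with either phorone array or control replicate 1 left out.

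Hspa1a, the HSP70 gene classically induced by heat, measured -2.55 and -1.80 on the phorone arrays and -2.17 and -2.41 on the control arrays. The phorone arrays lay on either side of the controls, so no change was detectable (0.12, SE 0.27, limma adjusted p = 0.743). This rested on 1 of its 4 probes, since the other 3 were not well above background on any array. The probe that was measured shares much of its sequence with probes of related genes, which is shown because RNA of related genes can bind such a probe. Capitals mark bases identical to the Hspa1a probe, 43 of the 58 compared bases for Hspa1l (74.1%) and 31 of 40 for Hspa2 (77.5%), all as designed on the array, 5′ to 3′.
Hspa1a: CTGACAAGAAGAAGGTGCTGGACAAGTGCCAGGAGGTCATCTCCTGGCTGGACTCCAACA
Hspa1l: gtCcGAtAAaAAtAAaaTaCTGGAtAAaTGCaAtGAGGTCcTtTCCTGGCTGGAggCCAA
Hspa2: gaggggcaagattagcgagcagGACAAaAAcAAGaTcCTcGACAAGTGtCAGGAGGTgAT
The Hspa1l probe was not above background and this Hspa2 probe, not the brighter one used above, gave -0.58 (not called). The promoter of Hspa1a, which was not called, holds GAANNTTC 104 bases before the start and none of the 3-unit forms. It is shown from chr17:34972157-34972406, minus strand (GRCm38.p6), with the motif in capitals.
Hspa1a promoter: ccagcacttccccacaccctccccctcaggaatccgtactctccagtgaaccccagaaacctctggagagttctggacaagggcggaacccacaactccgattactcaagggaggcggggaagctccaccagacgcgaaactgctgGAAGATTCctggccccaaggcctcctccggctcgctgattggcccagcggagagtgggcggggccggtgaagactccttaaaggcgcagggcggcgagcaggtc

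Both cytosolic HSP90 genes rose. Hsp90aa1, the stress-inducible form, measured 7.61 and 7.64 in phorone cells and 6.72 and 6.28 in control cells. Hsp90ab1, the constitutive form, measured 7.50 and 7.59 against 6.64 and 6.59. In each gene the phorone arrays lay close together and above both controls. The changes were 1.13 (SE 0.18, limma adjusted p = 0.00781) and 0.93 (SE 0.12, adjusted p = 0.00438), and the other probe of Hsp90ab1 gave 1.19, also called. Their endoplasmic reticulum relative Hsp90b1, which is not a member, was lower (-0.42, adjusted p = 0.0468), a call that was lost with spike-in scaling, and the difference between these changes was not tested.

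Of 6 small heat shock proteins tested, 2 were higher (33.3%, background 24.3%), 2 lower (33.3%, background 21.3%) and 2 not called. These counts are too small to set apart from the background. The median of the 6 genes, -0.10, became 0.337 with spike-in scaling. Hspb1 (HSP25 in mouse) measured 5.53 and 5.45 with phorone against 4.08 and 4.61 in controls, and Hspb8, which works with Bag3 in sending misfolded proteins to autophagy, measured 4.51 and 4.62 against 3.40 and 3.64. For both, each phorone array exceeded each control array. Hspb1 rose by 1.14 (SE 0.20, limma adjusted p = 0.0103) and Hspb8 by 1.05 (SE 0.14, adjusted p = 0.00492), and both calls held in all 14 other fits with 1 value per gene. The window before the Hspb1 start holds GAANNTTC at 117 and 97 bases upstream (chr5:135887669-135887918, plus strand, GRCm38.p6, motifs in capitals), and is shown as the promoter of a higher member with a pair of the short motifs.
Hspb1 promoter: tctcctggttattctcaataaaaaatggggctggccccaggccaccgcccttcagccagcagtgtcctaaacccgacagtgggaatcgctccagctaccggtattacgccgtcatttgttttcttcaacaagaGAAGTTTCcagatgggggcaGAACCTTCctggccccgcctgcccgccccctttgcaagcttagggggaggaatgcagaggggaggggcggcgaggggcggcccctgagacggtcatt

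The lower pair were Hspb2 and Hspb6 (HSP20), both best known from muscle. Hspb2 measured -1.75 and -2.09 in the phorone group and -0.01 and 0.39 in the control group, and Hspb6 measured -2.89 and -2.60 against -1.40 and -0.87. All phorone arrays lay below all control arrays. Hspb2 fell by 2.11 (SE 0.20, adjusted p = 0.00192), or 4.32-fold, and Hspb6 by 1.61 (SE 0.22, adjusted p = 0.00508), or 3.05-fold, the largest falls among the members. They were the only 2 lower members whose call held in all 14 other fits. Cryab (alpha-B crystallin), a small heat shock protein outside the members and the next gene to Hspb2 on chromosome 9, measured 3.46 and 3.49 with phorone and 3.96 and 4.19 without. It fell by 0.60 (SE 0.14, limma adjusted p = 0.0218), with the call lost without either phorone array or control replicate 2 and with spike-in scaling. The muscle marker Des, desmin, was also lower (-1.79), while the other 2 muscle markers of the list were not above background. Hspb9, a testis gene (0.06, adjusted p = 0.717), and Hspb11, a part of the transport machinery of cilia (-0.26, adjusted p = 0.132), were not called.

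Of the mitochondrial chaperones, HSP60 and HSP10 were higher and the mitochondrial HSP70 was not called. Hspe1 (HSP10) measured 4.99 and 4.98 in phorone cells, against 3.76 and 4.03 in control cells. Hspd1 (HSP60) measured 6.11 and 6.21 against 5.44 and 5.44. The phorone arrays of both genes stood above the controls with little spread. Hspe1 rose by 1.09 (SE 0.14, limma adjusted p = 0.00445) and Hspd1 by 0.72 (SE 0.12, adjusted p = 0.0086), with 0.73 on the other probe of Hspd1. Without phorone replicate 2 Hspd1 had 0.671 and was not called (adjusted p = 0.0632). Hspa9 (mortalin) measured 5.67 and 5.62 against 5.37 and 5.52, with phorone slightly above, and its 0.20 (SE 0.13, adjusted p = 0.246) missed the threshold, although its other probe gave 0.69 and was called. Hspd1 and Hspe1 lie next to each other on chromosome 1 and are read in opposite directions from a shared stretch. That stretch of 215 bases, chr1:55087933-55088147 on the strand of Hspe1 (GRCm38.p6), is shown because it serves both genes. Its capitals mark a run of 18 bases holding overlapping 3-unit forms, which begins 89 bases before the Hspe1 start.
Hspd1 and Hspe1: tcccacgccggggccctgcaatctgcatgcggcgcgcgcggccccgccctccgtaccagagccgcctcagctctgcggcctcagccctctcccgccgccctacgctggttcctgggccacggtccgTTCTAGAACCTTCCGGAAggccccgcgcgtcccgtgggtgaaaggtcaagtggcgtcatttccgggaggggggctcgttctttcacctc

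Among the J-domain members, 30 of 38 were tested, and 11 were higher (36.7%, background 24.3%), 5 lower (16.7%, background 21.3%) and 14 not called, with a median of 0.39. With spike-in scaling 8 were higher and 0 lower, where 17% of all genes were higher and 7.06% lower. In class A, the cytosolic HSP70 partners Dnaja1 and Dnaja2 were higher and Dnaja4 lower. Dnaja1 measured 5.65 and 5.92 in phorone cells against 4.87 and 4.81 in control cells. These groups lay apart, and the change was 0.95 (SE 0.15, limma adjusted p = 0.00676). Its 2 dimmer probes gave 0.02 and -0.17 and were not called, and with the mean of its probes the change was 0.265 and not called. Dnaja2 measured 3.78 and 3.86 against 3.40 and 3.41 and rose by 0.42 (SE 0.12, adjusted p = 0.0397), a call lost with any of the 4 arrays left out. Dnaja3 of mitochondria (2.50 and 2.68 against 2.23 and 1.95) did not overlap either but fell just outside the threshold (0.50, adjusted p = 0.0503). Dnaja4 measured -1.51 and -1.59 with phorone and -1.06 and -0.91 without. It fell by 0.57 (SE 0.13, adjusted p = 0.0203) and lost the call without phorone replicate 1, phorone replicate 2 or control replicate 2, and with spike-in scaling.

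In class B, Dnajb2 (HSJ1, which also binds ubiquitin), Dnajb14 (anchored in the endoplasmic reticulum membrane with its J domain towards the cytosol) and Dnajb6 (which holds back aggregation of polyglutamine proteins) were higher. Dnajb2 measured 3.54 and 3.66 in phorone cells against 2.38 and 2.64 in control cells and rose by 1.08 (SE 0.15, limma adjusted p = 0.00487). Dnajb14 measured 1.23 and 1.24 against 0.21 and 0.20 and rose by 1.03 (SE 0.12, adjusted p = 0.00299). Dnajb6 measured 3.78 and 3.93 against 3.11 and 2.94 and rose by 0.83 (SE 0.14, adjusted p = 0.00813). All 3 were well separated between groups. Dnajb5 ran the other way, with -2.83 and -2.75 on the phorone arrays and -1.94 and -1.78 on the control arrays. It fell by 0.93 (SE 0.13, adjusted p = 0.00513) and was not called with spike-in scaling (-0.494). Its 2 dimmer probes gave -0.29, with overlapping arrays, and -0.48, and neither was called.

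The promoters of Dnajb6 and Dnaja4 are shown side by side because a motif stood in front of members called in opposite directions. Dnajb6, called higher, has a 3-unit form 46 bases before one of its starts, the one shown, and 127 bases before another. Dnaja4, called lower but not with spike-in scaling (-0.134), has GAANNTTC at 90 and 52 bases before one of its starts. Both are on the plus strand of GRCm38.p6, Dnajb6 at chr5:29735648-29735897 and Dnaja4 at chr9:54699309-54699558, with motifs in capitals.
Dnajb6 promoter: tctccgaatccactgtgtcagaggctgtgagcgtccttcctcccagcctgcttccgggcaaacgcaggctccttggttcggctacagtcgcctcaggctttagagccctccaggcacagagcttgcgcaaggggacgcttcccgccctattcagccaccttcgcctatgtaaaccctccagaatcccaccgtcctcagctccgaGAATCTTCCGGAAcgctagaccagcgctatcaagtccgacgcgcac
Dnaja4 promoter: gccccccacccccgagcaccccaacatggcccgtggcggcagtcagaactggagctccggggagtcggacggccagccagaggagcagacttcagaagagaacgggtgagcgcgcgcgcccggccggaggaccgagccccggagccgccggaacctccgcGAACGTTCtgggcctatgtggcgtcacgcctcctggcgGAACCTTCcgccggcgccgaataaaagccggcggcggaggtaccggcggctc

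Dnajb1 (HSP40), the classic heat-induced partner of HSP70, and its relative Dnajb4 depended on the probe. The brightest probe of Dnajb1 measured 5.54 and 5.48 in phorone cells against 5.15 and 5.36 in control cells, just above them, and was not called (0.26, SE 0.14, limma adjusted p = 0.176). Its other probe measured 2.67 and 3.19 against 1.81 and 2.01 and was called higher, with a change of 1.02 (SE 0.21) when every probe was fitted on its own. For Dnajb4 the brightest probe had 4.15 and 4.24 against 4.15 and 4.09 (0.08, adjusted p = 0.619), and the other had 1.92 and 2.31 against 1.40 and 0.94 (0.95, called). Which probe stands for the transcript present in these cells was not tested.

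**Figure D2:**
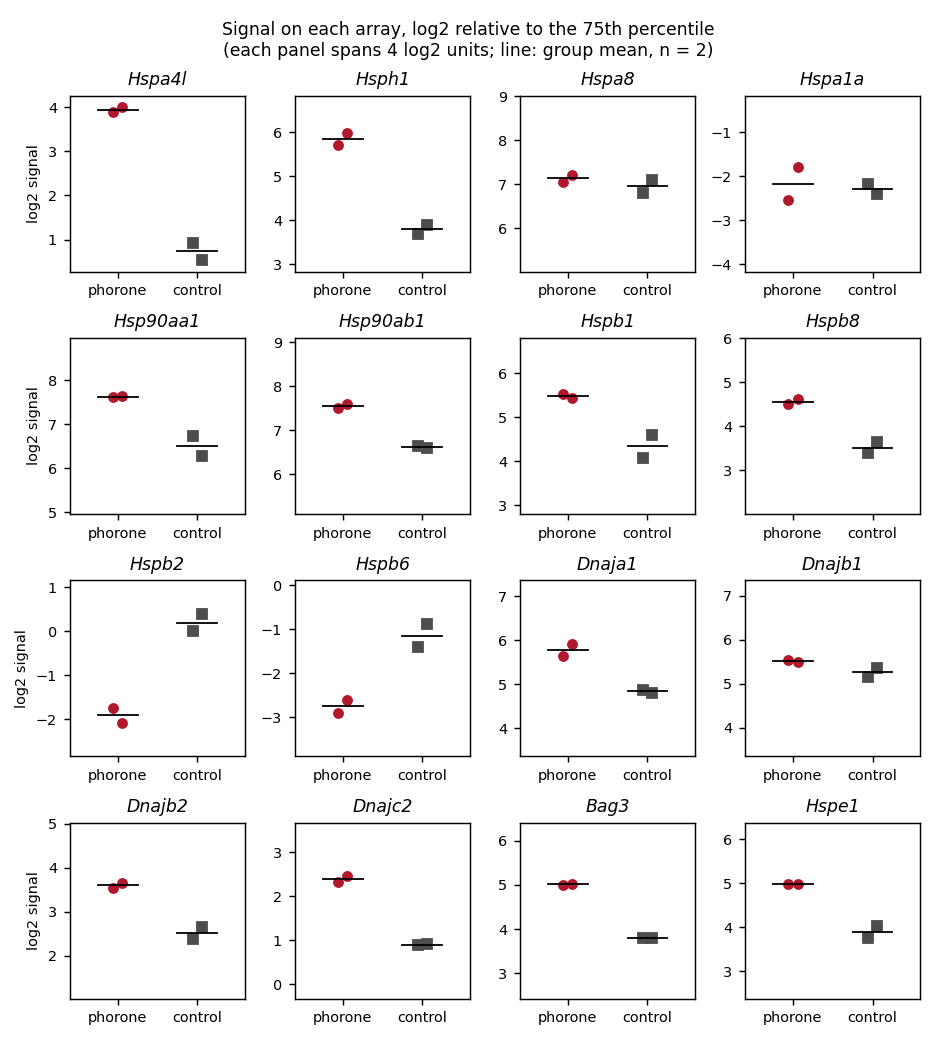
Log2 signal relative to the 75th percentile of the array (y axis) of 16 members on each array, phorone arrays as red circles and control arrays as grey squares, with a line at each group mean (n = 2); every panel covers an equal range of log2 units. The groups are farthest apart in Hspa4l (3.90 and 4.01 against 0.93 and 0.53), overlap in Hspa8 and Hspa1a, and are turned round in Hspb2 and Hspb6.

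Class C holds J-domain proteins with specialised tasks, and 6 of 19 tested members were higher (31.6%), 3 lower (15.8%) and 10 not called, shares not far from the background of 24.3% and 21.3%. Dnajc2 (MPP11), the ribosome-bound partner of Hspa14, measured 2.33 and 2.45 with phorone and 0.88 and 0.90 in controls. The spread within groups was small, and the change of 1.50 (SE 0.12, limma adjusted p = 0.00131), or 2.83-fold, was the largest among J-domain members, with 1.22 on its other probe. Dnajc16 measured 1.53 and 1.53 against 0.51 and 0.55 and rose by 1.00 (SE 0.12, adjusted p = 0.00324). Dnajc9, a histone chaperone, measured 3.80 and 3.97 against 2.91 and 3.01 and rose by 0.92 (SE 0.13, adjusted p = 0.00548). Neither gene showed any overlap. Dnajc24, which takes part in making diphthamide, rose by 0.84 (adjusted p = 0.00636), Dnajc15 of mitochondrial import by 0.59 (adjusted p = 0.0161) and Dnajc7, which bridges HSP70 and HSP90, by 0.45 (adjusted p = 0.0367). The calls of Dnajc15 and Dnajc7 were lost with either phorone array left out and with spike-in scaling, and that of Dnajc7 also without control replicate 1.

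The lower class C members were close to the threshold. Dnajc12 measured -0.89 and -0.74 in phorone cells against -0.24 and -0.14 in control cells and fell by 0.63 (SE 0.13, limma adjusted p = 0.0158). Dnajc19, a subunit of the mitochondrial import motor, measured 3.70 and 3.57 against 4.16 and 4.06 and fell by 0.47 (SE 0.13, adjusted p = 0.0339). No overlap was seen in either, but Dnajc12 lost its call with either phorone array left out, Dnajc19 with any array left out, and both with spike-in scaling. Dnajc27, which joins a J domain to a small GTPase, was the 1 member with probes called in opposite directions. Its brightest probe measured -0.94 and -1.05 in the phorone group against -0.45 and -0.05 in the control group and fell by 0.75 (SE 0.17, adjusted p = 0.023). Another fell by 0.84, whereas the third measured -3.43 and -3.17 against -4.20 and -4.20 and rose by 0.91. The direction for Dnajc27 is therefore uncertain, and the call of its brightest probe was lost without either phorone array and with spike-in scaling.

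The 10 class C members not called ran from -0.29 for Dnajc28 to 0.42 for Dnajc14. Dnajc8, a protein linked to splicing (0.41), Dnajc14 (0.42), Dnajc18 (0.37) and Dnajc21, a ribosome assembly factor (0.42), had both phorone arrays above both controls and limma adjusted p between 0.0561 and 0.0813. Their changes depended on the control arrays. Without control replicate 2 Dnajc8 had 0.524 and Dnajc14 0.544, and without control replicate 1 Dnajc18 had 0.491 and Dnajc21 0.524. Each was smaller without the other control array. Dnajc28 measured -1.24 and -1.27 in phorone cells against -0.51 and -1.43 in control cells. The control arrays spread to either side of the phorone arrays. Dnajc28 had -0.743 without control replicate 2 and 0.171 without control replicate 1. Dnajc17 had -0.496 without control replicate 1 and 0.094 without control replicate 2. The sign of both genes thus depended on which control array was left out. The other probe of Dnajc28 above background went the opposite way (0.93) and was called higher when every probe was fitted on its own. In that fit the other probes of Dnajc14 (1.01) and Dnajc8 (0.41) were also called higher, and that of Dnajc18 (0.21) was not called. Dnajc5 and Dnajc11 also overlapped, while Dnajc13 (0.14) and Dnajc4 (-0.21) did not and were not called. In class B, Dnajb12, anchored like Dnajb14, had 0.29 (adjusted p = 0.208).

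BAG proteins release nucleotide from HSP70 and tie it to other systems. Of the 5 BAG members 2 were higher (40%, background 24.3%) and 0 lower (background 21.3%), counts too small to set apart from the background. Bag3, the partner of Hspb8 in selective autophagy, measured 5.00 and 5.03 in phorone cells against 3.80 and 3.80 in control cells. The arrays of each group nearly coincided, and Bag3 rose by 1.22 (SE 0.12, limma adjusted p = 0.00192), or 2.32-fold. Bag1, which links HSP70 to the proteasome, measured 3.64 and 3.73 against 2.82 and 3.11, without overlap. It rose by 0.72 (SE 0.15, adjusted p = 0.0158), with adjusted p = 0.0514 without phorone replicate 1 and 0.0800 without phorone replicate 2. Bag2 (0.22), Bag4 (0.26) and Bag5 (-0.13) were not called, nor was Bag6 (-0.36, adjusted p = 0.0845), which stands under another name on the array.

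The names also took in 2 proteins that bind heat shock proteins. Hspbap1, named for its binding to Hspb1, measured 3.06 and 3.37 with phorone and 1.55 and 1.07 in controls. Its groups were far apart, and its 1.91 (SE 0.22, limma adjusted p = 0.00303), or 3.75-fold, was the third largest rise of all members. Hspbp1, a nucleotide exchange factor of HSP70, measured 2.14 and 2.10 against 1.40 and 1.88 and was not called (0.48, adjusted p = 0.0956), though its other probe was (0.68) and leaving out control replicate 2 gave 0.714 (adjusted p = 0.0236).

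A second list held 30 genes that work with the members: heat shock factors, HSP90 and HSP70 co-chaperones and related chaperones. Of 27 tested, 12 were higher (44.4%, background 24.3%), 2 lower (7.41%, background 21.3%) and 13 not called, and the median change was 0.33. The co-chaperones of HSP90 and HSP70 led it. Ppid (cyclophilin 40) measured 5.37 and 5.49 in phorone cells against 3.92 and 3.58 in control cells and rose by 1.68 (SE 0.16, limma adjusted p = 0.00191). Ptges3 (p23) measured 4.74 and 5.22 against 3.81 and 3.42 and rose by 1.37 (SE 0.23, adjusted p = 0.00849). St13 (Hip) measured 5.93 and 6.03 against 4.80 and 4.62 and rose by 1.27 (SE 0.13, adjusted p = 0.00249). In all 3 the phorone arrays stood above the controls by much more than the arrays of a group differed. Ahsa1, which speeds the ATPase of HSP90, rose by 1.18 (adjusted p = 0.00257), Stip1 (HOP), which joins HSP70 to HSP90, by 1.11 (adjusted p = 0.00977) and Chordc1 by 1.08 (adjusted p = 0.00346).

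Of the heat shock factors, Hsf1 measured 3.40 and 3.39 with phorone and 3.01 and 3.29 without, and was not called (0.25, SE 0.15, limma adjusted p = 0.216). Hsf2 measured -3.77 and -3.62 against -4.26 and -4.59 and rose by 0.73 (adjusted p = 0.0194), a call lost without phorone replicate 2. Its control values lay not far above the lowest signal well above background on those arrays (-4.82 and -4.80), so the size of its change is uncertain. Hsf5 was not well above background on either phorone array, with a measured mean of -5.11 there against -3.25 in controls, and was at least 2.69-fold lower (adjusted p = 0.00128). Such a bound sets the mean of the brighter group against the lowest signal among probes well above background on each array, or the gene's own value where that is higher. The other lower gene of the list was Cryab, given above.

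For comparison, all 9 listed genes for subunits of TRiC, the folding chamber of the cytosol, were higher (100%, background 24.3%), with a median of 1.01. With spike-in scaling 6 were higher, against 17% of all genes. Not all were called without phorone replicate 1, phorone replicate 2 or control replicate 1. Cct6a rose by 1.36 (adjusted p = 0.00367) and Cct8 by 1.01 (adjusted p = 0.00393). Among 7 tested chaperones of the endoplasmic reticulum that the names left out, limma called 1 higher (14.3%, background 24.3%) and 3 lower (42.9%, background 21.3%). Their median was 0.01. Hspa5 (BiP), the HSP70 of that compartment, measured 6.39 and 6.67 in phorone cells against 7.17 and 7.29 in control cells and was lower (-0.70, adjusted p = 0.0181), whereas its J-domain partner Dnajb9 measured 0.78 and 1.00 against -0.06 and -0.29 and was higher (1.07, adjusted p = 0.0056). With spike-in scaling, or without phorone replicate 1, 0 of the 7 were called lower. Of all genes, 7.06% were called lower with spike-in scaling. The lists share no gene, and the difference between them was not tested.

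**Figure D3:**
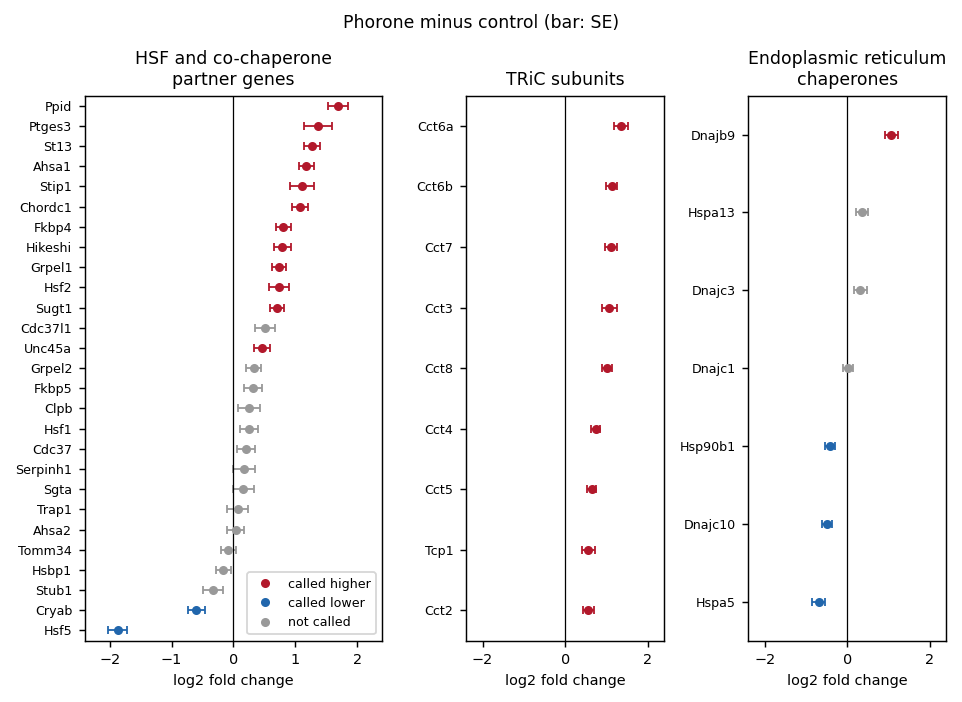
Log2 fold change (phorone minus control, x axis) with SE bars (n = 2 arrays a group) of 27 partner genes, 9 genes for TRiC subunits and 7 endoplasmic reticulum chaperones, coloured by limma call. The TRiC subunits lie between 0.56 and 1.36, and the endoplasmic reticulum chaperones between -0.70 and 1.07 (0 called lower with spike-in scaling, against 7.06% of all genes). The partner genes lie between -1.87 for Hsf5, whose phorone value is not above background, and 1.68 for Ppid.

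Probes of the same gene often differed in call. Of 27 members with several probes above background (60 probes), 11 had the same call on each, 15 were called on some and 1, Dnajc27, was called both ways. The sign was shared by all probes in 22, and the range between the probes of a gene had a median of 0.37 and reached 1 or more in 6. Of members not called on their brightest probe, 10 were called higher on another and 0 lower. The matching counts over all genes with several probes were not made, so these counts have no background. The other probe of Dnajc11 was not above background in controls and was at least 1.45-fold higher with phorone. Counted by probe, 45 of 89 member probes were higher, against 25.5% of 24205 probes, and 11 lower, against 20.3%.

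**Figure D4:**
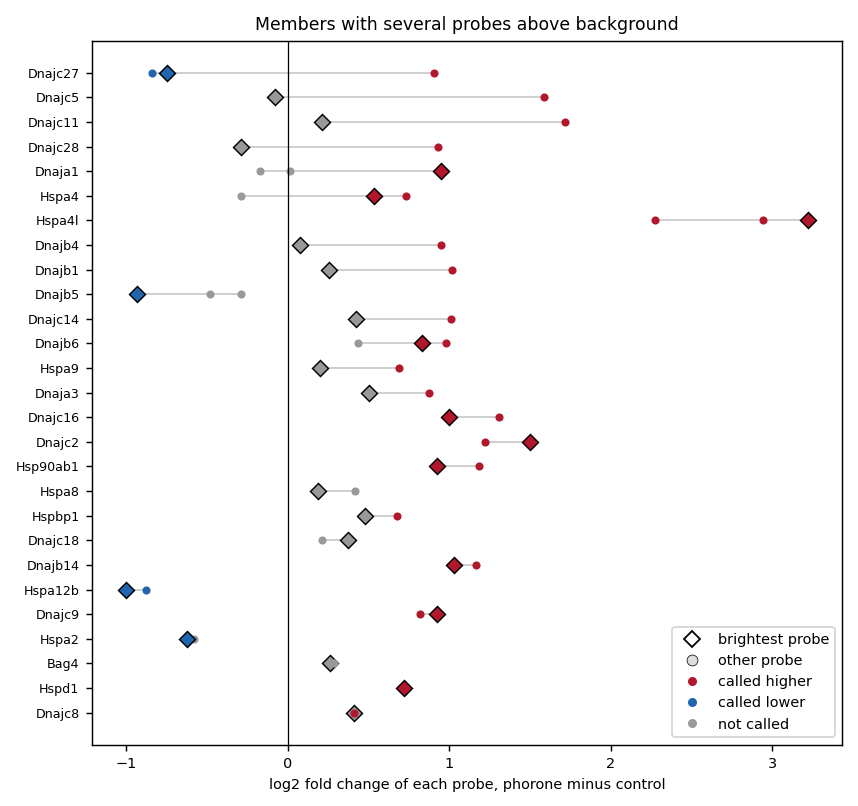
Log2 fold change (phorone minus control, x axis) of each probe above background for the 27 members with several such probes, ordered by the range between probes; diamonds are the brightest probe, circles the others, coloured by limma call when every probe was fitted on its own. In Dnajc27 the probes run from -0.84 to 0.91, and the 3 probes of Hspa4l are all above 2.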

How the data were processed

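RNA of 2 phorone and 2 control samples was measured on single-colour Agilent arrays. Agilent Feature Extraction 10.7.3.1 wrote the deposited intensity of each spot, per the file headers, with background subtracted and no scaling between arrays. A further deposited table gives the authors' log2 values, which equal those signals less 1 number per array (SD of at most 0.0195; column medians -4.37 and -4.30 for phorone, -4.39 and -4.35 for control), which was used as an alternative. Groups and replicate numbers came from the sample titles.

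From the processed signal, log2 values less the 75th percentile of each array were computed, spots of a probe averaged and outlier flags left out (111 probes). A probe was kept where both arrays of 1 or both groups had it well above background, the brightest standing for its gene (17031 genes). The comparison used limma 3.58.1 (R 4.3.3, two-sided; residual degrees of freedom 2, prior 3.03), and calls needed an adjusted p under 0.05 by Benjamini-Hochberg over all genes. No spot was saturated, and the number of arrays limits the precision. RefSeq accessions of GRCm38.p6 named 106 of the 112 member probes and the promoters, and the array's own names the rest.

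The members and lists were chosen with earlier results of these data known. Named were, in each family, up to 3 called members each way by size, members with probes called in opposite directions, a fixed set of well-known members and regulators, up to 5 partner genes each way and up to 3 comparison genes a list. Other genes named were chosen after their values were seen. The replicate numbers do not pair the samples (correlation of same-numbered deviations -0.020). The 15 alternatives covered scaling, background, filter, probe choice, the replicate block and leaving out each array.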

Additional observations from a re-analysis of the deposited data

How the results depend on the processing

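Of the members called, 17 of 24 higher and 2 of 9 lower (Hspb2 and Hspb6) kept their call in all 14 alternatives with 1 value per gene. Leaving out 1 array gave 4 to 8 lower members, a median of 0.303 to 0.447, 2086 to 3961 higher genes on the whole array, 1 to 2 lower partner genes and a partner median of 0.348 to 0.388. Spike-in scaling gave 2 lower members, a median of 0.853, 1203 lower genes on the whole array (7.06%), 1 lower partner gene and a partner median of 0.765. Calls in the higher direction made up 70.7% of all calls there, against 53.3% in the main fit. Quantile normalisation gave a median of 0.333. With no filter on dim probes, all 68 members and 29314 genes were fitted, and 19 members were higher and 5 lower. Of all genes 2305 were then higher (7.86%) and 8.59% lower, and 1 partner gene was lower. The member median was 0.278 and that of all genes 0.145. This gap of 0.133, against 0.332 in the main fit, was the smallest of all settings. A filter on all 4 arrays left 1 lower partner gene and a partner median of 0.393, and the mean of a gene's probes a partner median of 0.255. Every probe on its own gave 45 higher member probes, and 22 higher and 5 lower partner probes. Dnajc5 turned from -0.08 on its brightest probe to 0.752 (adjusted p = 0.0115) with the mean of its probes, which adds a probe at 1.58 to the average. With the replicate number as a block, 22 members were higher and 7 lower, and 3629 and 3369 of all genes; the samples share only a number, which is also the column of the slide. The cause of the other shifts was not tested.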

Other observations

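The dimmest probe changed more in size than the brightest in most members with several probes, though not in Dnaja1, Dnajc2 or Hspa4l, among others. In 19 of 27 members with several probes (70.4%) the brightest probe changed less than the dimmest, whatever the direction, against 3086 of 5612 genes of the whole array (55%). With the sign kept, the median change was 0.413 on the brightest and 0.873 on the dimmest probe of the 27 members, against 0.106 and 0.167 over all such genes. Dnajc5 (cysteine string protein, a J-domain protein of secretory vesicles), chosen after its values were seen, had 0.38 and 0.37 on the dimmer probe with phorone against -1.26 and -1.15 in controls, and 4.20 and 4.04 against 4.03 and 4.37 on the brighter one.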
